A study of Mus musculus with 40 samples.

Results

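The results below concern 6 of the 40213 gene symbols in the count tables, namely Tmem254, Plac9 and Duxbl1, which lie together on mouse chromosome 14, Nmb and Wdr73, which lie together on chromosome 7, and Vamp7, which the RefSeq gene table places on a scaffold assigned to chromosome X. The genes were picked from these same data because their levels fell into separated ranges across the 40 libraries, because genomic neighbours varied together, and because libraries with the same number in the midbrain and the spinal cord had like levels. They had also come up in the spinal cord comparison of MPTP-SU with MPTP-Veh. Values of these kinds are therefore given as descriptions, with no test. All 6 genes passed the filter on low counts in both tissues. The working name of the set, likely copy-number or haplotype genes, describes DNA, and only RNA was sequenced, so the gene dosage and the alleles behind these levels were not tested.

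The libraries came from a study of SUEHP, a preparation injected at the acupoint GB34, on pain in a mouse model of Parkinson's disease. All mice were male C57BL/6N, 8 weeks old. Con mice received saline, and the mice of the other 4 groups received the dopaminergic neurotoxin MPTP at 20 mg/kg, in 4 intraperitoneal injections 2 h apart. MPTP-Veh mice were then given saline at GB34 and MPTP-SU mice SUEHP, in 4 injections. MPTP-SU+S mice additionally received the CB1 cannabinoid receptor antagonist SR141716A (SR141714A in the sample labels) at 3 mg/kg, and MPTP-SU+T mice the PPARγ inhibitor T0070907 at 5 mg/kg. Each group had 4 midbrain and 4 spinal cord libraries, numbered 1 to 4 in each tissue. The labels do not say that a number stands for 1 animal in both tissues, nor that the 4 libraries of a group were 4 animals. If they were not, the p-values below measure only the spread between these samples.

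Tmem254, Plac9 and Duxbl1 belong to a segment that is present as several near-identical tandem copies in the mouse reference genome, and such copies are known to differ in number between mouse strains and substrains. Tmem254 encodes a small transmembrane protein of largely unknown function, Plac9 a small secreted protein first described in placenta, and Duxbl1 a double-homeobox transcription factor. Nmb encodes neuromedin B, a bombesin-like neuropeptide that acts on the receptor Nmbr and is made by some sensory neurons, and Wdr73 a WD-repeat protein whose human counterpart is mutated in Galloway-Mowat syndrome. Vamp7 encodes a vesicle SNARE that mediates fusion of late endosomes and lysosomes and takes part in neurite outgrowth.

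The start regions show how alike the chromosome 14 copies are. RefSeq on GRCm38.p6 lists 3 entries whose names start with Tmem254, 2 with Plac9 and 3 with Duxbl on chromosome 14, whereas the count tables hold 1 symbol for each of these names. The 300-base start windows of Tmem254a and Tmem254c were identical, and that of Tmem254b shared an unbroken run of 284 bases with Tmem254a. The windows of Gm9780, a Plac9-like entry, and Plac9b were identical as well, with a run of 222 bases shared with Plac9a. Of the 4 members with an entry in the promoter table (Tmem254, Plac9, Nmb and Wdr73), the sequences upstream of the start are given as RefSeq has them on GRCm38.p6, all on the minus strand and 5′ to 3′, because the first pair stands for the duplicated segment and the second for the chromosome 7 genes. Capitals mark GGGCGG, the core of a GC box, on either strand (CCGCCC).
Tmem254a, chr14:25927693-25927922: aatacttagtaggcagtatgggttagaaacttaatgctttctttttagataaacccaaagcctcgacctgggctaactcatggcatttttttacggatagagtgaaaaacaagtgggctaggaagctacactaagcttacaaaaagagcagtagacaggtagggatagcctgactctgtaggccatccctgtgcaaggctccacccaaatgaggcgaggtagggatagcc
Gm9780, chr14:26042868-26042987: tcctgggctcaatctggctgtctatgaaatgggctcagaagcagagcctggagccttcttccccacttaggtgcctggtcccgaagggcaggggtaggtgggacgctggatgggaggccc
Nmb, chr7:80905083-80905312: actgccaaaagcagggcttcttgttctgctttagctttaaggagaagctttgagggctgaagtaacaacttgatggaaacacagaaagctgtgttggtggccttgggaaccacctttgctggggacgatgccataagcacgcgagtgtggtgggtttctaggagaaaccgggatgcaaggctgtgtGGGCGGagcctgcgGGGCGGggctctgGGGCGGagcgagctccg
Wdr73, chr7:80901290-80901519: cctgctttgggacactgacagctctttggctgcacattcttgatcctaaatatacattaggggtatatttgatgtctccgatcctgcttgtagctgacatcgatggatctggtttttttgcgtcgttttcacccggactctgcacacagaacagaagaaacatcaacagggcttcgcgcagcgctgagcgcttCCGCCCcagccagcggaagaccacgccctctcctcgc
Within the 230 bases searched, the motif occurred 3 times for Nmb, 1 time for Wdr73, 0 times for Tmem254a and 2 times for Gm9780, whose matches lie outside the stretch shown. Among 32851 promoter entries, 29.8% held it at least 1 time. The Nmb and Wdr73 entries lie close to each other and on the same strand.

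The likeness of the copies extended to their transcripts. In a GENCODE mouse transcript set, 72.9% of the 31-base words of Tmem254a, 99.7% of those of Plac9a and 96.0% of those of Duxbl1 also occurred in another gene. The share was 17.1% for Nmb and 0.471% for Wdr73. Vamp7 was not matched in this set. The counts of the 3 chromosome 14 genes therefore depend on how the authors' counting divided reads among copies, and are uncertain as measures of any single copy.

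Library totals were 11958200 to 16639823 counts in the midbrain and 14642808 to 16615378 in the spinal cord, and no pair of libraries held identical values. Levels are given as CPM (counts scaled to library size) on TMM library sizes, and intervals on them cover counting error only. Summed CPM of 8 dopaminergic genes was 138 to 409 in the midbrain and 20.0 to 25.6 in the spinal cord, and that of 8 spinal cord genes, most of them Hox genes, was 456 to 562 in the cord and at most 6.56 in the midbrain, so the tissue labels matched their markers. Midbrain MPTP-Veh replicate 4 stood apart, with 1.74% of its counts from mitochondrially encoded genes against 12.6 to 20.1% in the other 19 midbrain libraries. Amounts of neighbouring tissue varied widely in the midbrain, where choroid plexus markers summed to 8.95 to 1240 CPM and hypothalamic markers to 1.70 to 657 CPM. Cord markers of dorsal root ganglia and roots summed to 386 to 1410 CPM. In bulk tissue, fewer cells of a type and less RNA per cell cannot be told apart.

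Tmem254 levels were divided by rank into 3 ranges, and the same libraries occupied each range in both tissues. Spinal cord levels in replicates 1 to 4 were 17.3, 29.6, 52.2 and 26.2 CPM in Con, 22.6, 20.1, 19.7 and 18.3 CPM in MPTP-Veh and 33.1, 30.7, 28.9 and 30.4 CPM in MPTP-SU. In the same order they were 30.8, 20.4, 18.3 and 32.9 CPM in MPTP-SU+S and 22.6, 43.2, 39.9 and 17.1 CPM in MPTP-SU+T. The MPTP-Veh and MPTP-SU libraries were each close together and did not overlap, while Con and the inhibitor groups spanned both of them. In the midbrain, levels were 13.1, 18.2, 29.9 and 19.9 CPM in Con, 12.8, 12.3, 13.1 and 14.6 CPM in MPTP-Veh and 19.5, 18.0, 22.9 and 17.5 CPM in MPTP-SU. They were 21.5, 13.5, 12.2 and 18.1 CPM in MPTP-SU+S and 12.8, 26.7, 25.3 and 14.4 CPM in MPTP-SU+T. Replicate by replicate, low and high libraries recurred under the same group and number as in the cord.

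Ordered by Tmem254, the 9 lowest libraries were Con replicate 1, all 4 of MPTP-Veh, MPTP-SU+S replicates 2 and 3 and MPTP-SU+T replicates 1 and 4, at 12.2 to 14.6 CPM in the midbrain and 17.1 to 22.6 CPM in the spinal cord. The next 8 were Con replicates 2 and 4, all 4 of MPTP-SU and MPTP-SU+S replicates 1 and 4, at 17.5 to 22.9 CPM and 26.2 to 33.1 CPM. The highest 3 were Con replicate 3 and MPTP-SU+T replicates 2 and 3, at 25.3 to 29.9 CPM and 39.9 to 52.2 CPM. The range sizes of 9, 8 and 3 libraries were chosen after the values of Tmem254 were seen, which favours Tmem254 over other genes. Not every boundary was a clear gap. The 95% counting intervals overlapped between the lowest 9 and next 8 in the cord (20.4 to 25.1 and 23.8 to 28.8 CPM). They also overlapped between the middle and highest ranges in the midbrain (20.7 to 25.3 and 23.0 to 27.7 CPM). All 20 same-numbered pairs fell in the same range in both tissues. Among the 14541 genes with a mean of at least 1 CPM in each tissue, this held for Tmem254 alone (0.00688%), against 8 pairs for the median gene. If split instead at the largest gap between consecutive libraries in each tissue, 12 of the 20 pairs of Tmem254 fell on the same side. That gap had 9 libraries below it in the midbrain and 17 in the cord. Of the 5 groups, MPTP-Veh and MPTP-SU each lay wholly in 1 range, and the other 3 were spread over at least 2.

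**Figure D1:**
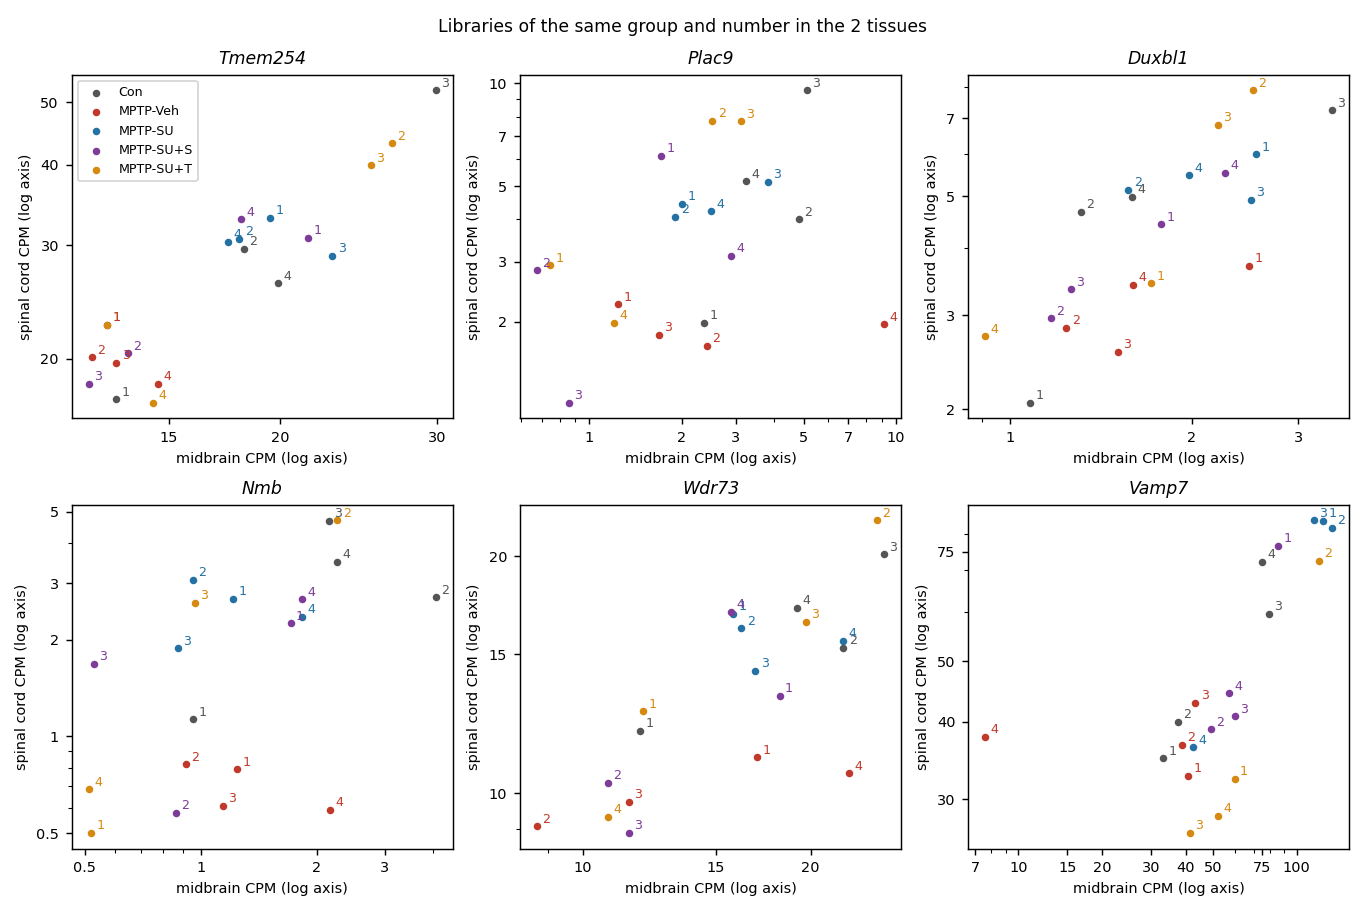
Spinal cord CPM against midbrain CPM, both on log axes, for the 20 pairs of libraries of the same group and number, 1 panel a gene, with points numbered by replicate and coloured by group. Tmem254 has its 9 lowest pairs at 12.2 to 14.6 CPM in the midbrain and 17.1 to 22.6 CPM in the cord, apart from the other 11, and Vamp7 has 7 pairs at 75.3 to 134 CPM and 59.6 to 84.2 CPM.

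Plac9 followed the same order in the spinal cord. Its levels there were 1.99, 4.00, 9.56 and 5.17 CPM in Con, 2.25, 1.70, 1.83 and 1.97 CPM in MPTP-Veh and 4.43, 4.07, 5.16 and 4.22 CPM in MPTP-SU. They were 6.13, 2.83, 1.16 and 3.12 CPM in MPTP-SU+S and 2.93, 7.77, 7.75 and 1.99 CPM in MPTP-SU+T. As for Tmem254, Con replicate 3 and MPTP-SU+T replicates 2 and 3 were the highest, and MPTP-Veh and MPTP-SU did not overlap. In the midbrain, where Plac9 had only 10 to 97 counts a library, levels ranged from 0.676 to 5.12 CPM in 19 libraries, and MPTP-Veh replicate 4, the library poor in mitochondrial RNA, had 9.13 CPM. The same-numbered spinal cord library was among the lowest, at 1.97 CPM.

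Duxbl1 had 31 to 136 counts a cord library and 16 to 54 a midbrain library. Its spinal cord levels were 2.06, 4.68, 7.24 and 4.99 CPM in Con, 3.71, 2.84, 2.56 and 3.42 CPM in MPTP-Veh and 5.99, 5.14, 4.92 and 5.47 CPM in MPTP-SU. They were 4.43, 2.96, 3.35 and 5.53 CPM in MPTP-SU+S and 3.44, 7.89, 6.79 and 2.74 CPM in MPTP-SU+T. Here all 20 libraries fell in the same of the 3 ranges for Plac9 and Duxbl1 as for Tmem254. In the midbrain, where levels were 0.911 to 3.41 CPM for Duxbl1, the matches were 12 of 20 for Duxbl1 and 11 of 20 for Plac9. Across tissues, Duxbl1 kept its range in 12 pairs and Plac9 in 11, and 5.80% and 12.6% of all genes had at least as many.

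The neuropeptide gene Nmb was scarce, with 7 to 81 counts a cord library and 7 to 68 a midbrain library. Its spinal cord levels were 1.13, 2.71, 4.69 and 3.49 CPM in Con, 0.791, 0.819, 0.609 and 0.591 CPM in MPTP-Veh and 2.68, 3.07, 1.88 and 2.36 CPM in MPTP-SU. They were 2.25, 0.579, 1.68 and 2.67 CPM in MPTP-SU+S and 0.501, 4.70, 2.61 and 0.684 CPM in MPTP-SU+T. All MPTP-Veh libraries lay below every Con and every MPTP-SU library, although MPTP-SU+S and MPTP-SU+T together had 3 libraries as low. The lowest of these values rests on 7 counts, with an exact Poisson 95% interval of 0.201 to 1.03 CPM. In the midbrain the levels were 0.955, 4.06, 2.15 and 2.26 CPM in Con and 0.513 to 2.26 CPM in the other 4 groups. The highest, Con replicate 2, was also the library with the highest sum of choroid plexus markers (1240 CPM), whose part in its Nmb level was not tested.

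Wdr73, the neighbour of Nmb, had 138 to 382 counts a cord library and 133 to 395 a midbrain library. Its spinal cord levels were 12.0, 15.3, 20.1 and 17.2 CPM in Con, 11.1, 9.07, 9.74 and 10.6 CPM in MPTP-Veh and 16.9, 16.2, 14.3 and 15.6 CPM in MPTP-SU. They were 13.3, 10.3, 8.90 and 17.0 CPM in MPTP-SU+S and 12.7, 22.2, 16.5 and 9.33 CPM in MPTP-SU+T. MPTP-Veh again lay below all Con and all MPTP-SU libraries. Midbrain levels were 11.9, 22.1, 25 and 19.2 CPM in Con, 17.0, 8.70, 11.5 and 22.5 CPM in MPTP-Veh and 15.8, 16.2, 16.9 and 22.1 CPM in MPTP-SU. They were 18.2, 10.8, 11.5 and 15.7 CPM in MPTP-SU+S and 12.0, 24.5, 19.7 and 10.8 CPM in MPTP-SU+T. There MPTP-Veh overlapped both Con and MPTP-SU. Nmb and Wdr73 each shared the range of Tmem254 in 18 of 20 cord libraries, including all 9 of its lowest and 2 of its highest 3, although they lie on another chromosome. In the midbrain the matches were 11 of 20 for Nmb and 15 of 20 for Wdr73.

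Vamp7 split differently. Its spinal cord levels were 34.9, 40, 59.6 and 72.2 CPM in Con, 32.7, 36.7, 42.9 and 37.8 CPM in MPTP-Veh and 84.0, 81.9, 84.2 and 36.4 CPM in MPTP-SU. They were 76.6, 38.9, 40.8 and 44.4 CPM in MPTP-SU+S and 32.4, 72.5, 26.5 and 28.2 CPM in MPTP-SU+T. Thus 3 MPTP-SU libraries were above 80 CPM and the 4th was within the MPTP-Veh range, while MPTP-SU+S and MPTP-SU+T each had 1 library far above the other 3. Midbrain levels were 33.0, 37.4, 79.6 and 75.3 CPM in Con, 40.8, 38.6, 43.3 and 7.62 CPM in MPTP-Veh and 124, 134, 115 and 42.3 CPM in MPTP-SU. They were 85.5, 49.3, 60.1 and 57.2 CPM in MPTP-SU+S and 59.8, 120, 41.3 and 52.3 CPM in MPTP-SU+T. The 7 highest libraries were the same in both tissues, namely Con replicates 3 and 4, MPTP-SU replicates 1, 2 and 3, MPTP-SU+S replicate 1 and MPTP-SU+T replicate 2. They had 75.3 to 134 CPM in the midbrain, where the other 13 had 7.62 to 60.1 CPM, and 59.6 to 84.2 CPM in the cord, where the other 13 had 26.5 to 44.4 CPM. The number 7 was chosen after the values were seen. Only 3 of the 14541 genes (0.0206%) shared all 7 highest libraries between tissues, against 3 of 7 for the median gene. The ranges of Vamp7 matched those of Tmem254 in 11 of 20 libraries of either tissue.

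**Figure D2:**
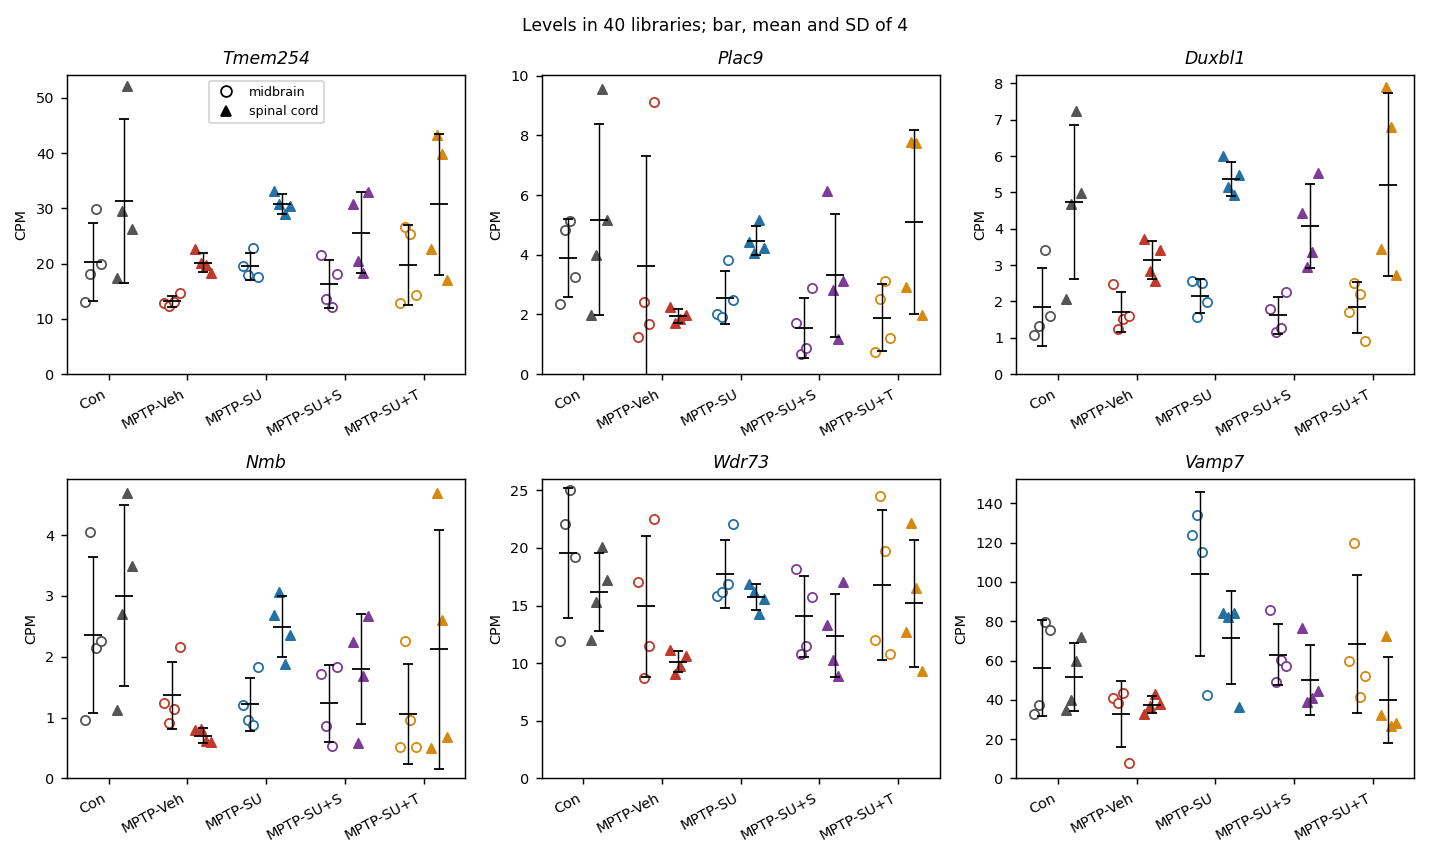
CPM of each of the 6 genes in the 40 libraries, by group, with open circles for midbrain and filled triangles for spinal cord; horizontal bars are the mean and whiskers the SD of 4 libraries, and axes start at 0, where the SD of Plac9 in midbrain MPTP-Veh is clipped. In the spinal cord the MPTP-Veh libraries of Tmem254 lie at 18.3 to 22.6 CPM and those of MPTP-SU at 28.9 to 33.1 CPM, while Con spans 17.3 to 52.2 CPM.

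The members were next described by the largest step between consecutive libraries, in log2 CPM with a prior count of 2 and with at least 3 libraries on each side. The step in the cord was 25.5% of the whole range for Vamp7, between 44.4 and 59.6 CPM, with 13 libraries below and 7 above. It was 17.7% for Nmb, between 1.13 and 1.68 CPM, with 8 below and 12 above, and 16.9% for Tmem254, between 33.1 and 39.9 CPM, with 17 below and 3 above. For Duxbl1 (13.2%), Plac9 (11.9%) and Wdr73 (7.79%) the share was near or under that of the median gene (12.9%). The size of the step itself was above the median gene (0.07 on the log2 scale) in the cord for all 6, at 0.52 for Nmb, 0.42 for Vamp7, 0.35 for Plac9, 0.27 for Tmem254, 0.25 for Duxbl1 and 0.10 for Wdr73. As large a step was found in 0.646% of genes for Nmb, 1.27% for Plac9, 3.21% for Duxbl1 and 25.9% for Wdr73. As large a share of the range was found in 2.90% of genes for Vamp7 and in 92.7% for Wdr73. In the midbrain the share was largest for Wdr73 (25.6%), Nmb (21.8%) and Tmem254 (20.5%), and the others lay at 10.3 to 12.0%, where the median gene had 9.09%. At the cord step of Vamp7 the 95% counting intervals of the libraries on either side were apart, at 41.1 to 47.8 CPM and 56.0 to 63.3 CPM. So were those of Tmem254 (30.3 to 36.0 and 36.9 to 43.1 CPM). Intervals overlapped at the cord steps of Nmb (0.658 to 1.81 and 1.1 to 2.46) and Plac9 (2.3 to 4.12 and 2.99 to 5.23 CPM). The same held for Duxbl1 (2.84 to 4.77 and 3.47 to 5.57 CPM) and Wdr73 (9.58 to 12.9 and 10.3 to 13.8 CPM). At the midbrain steps they overlapped for Tmem254 (12.4 to 17.1 and 15.4 to 19.9 CPM), Wdr73 (10.2 to 14 and 13.8 to 17.7 CPM) and Nmb, where the step lay between 8 and 14 counts (0.228 to 1.04 and 0.470 to 1.44 CPM). Separation between libraries was part of what chose the genes, so these values do not test their label.

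Agreement between tissues was measured as the median difference between same-numbered libraries over that between libraries of the same group with other numbers, after subtracting the mean of each tissue and group. This ratio was 0.232 for Vamp7, the 4th lowest of 14541 genes, 0.375 for Duxbl1 (53rd) and 0.470 for Wdr73 (216th). It was 0.545 for Tmem254 (584th), 0.744 for Plac9 (3146th) and 0.909 for Nmb (6847th), with a median of 0.928 over all genes. Nmb, at 7 to 81 counts, was thus close to an ordinary gene by this measure. Over the 20 pairs, Pearson's r of the same values was 0.891 for Tmem254, 0.833 for Duxbl1, 0.758 for Wdr73, 0.683 for Vamp7, 0.651 for Nmb and 0.497 for Plac9, and 0.0353 for the median gene. Split at the largest step of each tissue, 17 of the 20 pairs lay on the same side in both tissues for Vamp7. The count was 16 for Wdr73, 15 for Duxbl1, 13 for Plac9 and for Nmb, and 12 for Tmem254. The pairs share their group and number, and effects common to a whole library enter both values.

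Most of the variance of each member lay within groups, as it did for the median gene. Differences between the 5 groups accounted for 23.3% of the variance of Tmem254 in the spinal cord, 25.8% of that of Duxbl1, 34.9% for Plac9, 35.6% for Vamp7, 41.7% for Wdr73 and 42.5% for Nmb, where the median gene had 27.0%. In the midbrain they accounted for 9.37% for Duxbl1, 16.5% for Wdr73, 27.9% for Nmb, 30.3% for Tmem254, 32.2% for Plac9 and 43.3% for Vamp7, where the median gene had 32.9%. In the cord, Plac9, Vamp7, Wdr73 and Nmb were above the median gene, and 21.3% and 20.1% of genes were as high as Wdr73 and Nmb. Vamp7 alone was above the median gene in both tissues.

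**Figure D3:**
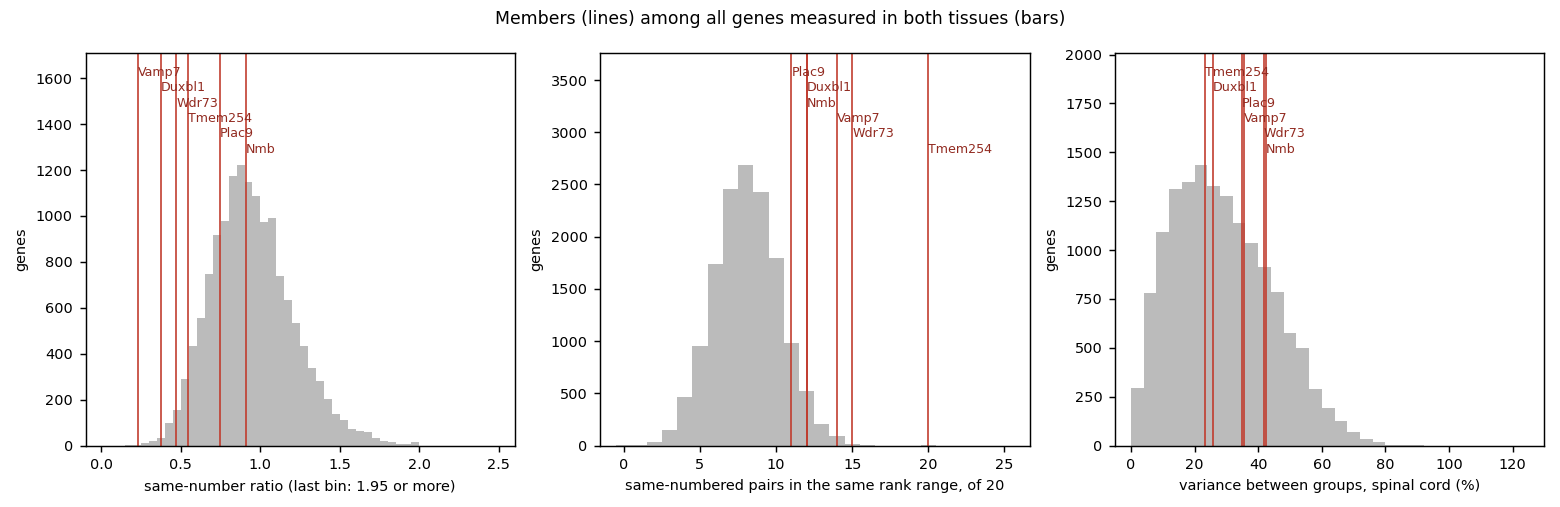
Distribution over 14541 genes (grey bars) of the same-number ratio, of the number of same-numbered pairs in the same of 3 ranges of levels, and of the percentage of variance between groups in the spinal cord, with the 6 genes as lines. Vamp7 is at 0.232 in the left panel and Tmem254 at 20 of 20 in the middle panel, whose range sizes were chosen on Tmem254. In the right panel the 6 lie at 23.3 to 42.5%, around the median of 27.0%.

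The 5 genes of chromosomes 14 and 7 varied together. Over 40 libraries, after subtracting the mean of each tissue and group, r with Tmem254 was 0.857 for Duxbl1, 0.798 for Wdr73, 0.784 for Plac9 and 0.763 for Nmb, and these were the 4 genes most like Tmem254 of all 14541, the only ones with r of at least 0.75. The pair Nmb and Wdr73 had r of 0.803, and the lowest of the 10 pairs, Plac9 and Duxbl1, had 0.594. In the 20 spinal cord libraries alone, r between Tmem254 and Duxbl1 was 0.935. The 40 points share same-numbered libraries of the tissues and are not 40 independent samples. The fifth most like Tmem254 was LOC115490200 of chromosome 5 (r of 0.708), and the same 5 genes headed its list without midbrain MPTP-Veh replicate 4.

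LOC115490200 was present in some libraries and nearly absent from others. It had 12.4 to 15.3 CPM in 7 midbrain libraries and at most 0.410 CPM (6 counts) in the other 13, and 9.68 to 12.1 CPM in 7 spinal cord libraries against at most 0.435 CPM (7 counts). The 7 were the same in both tissues, Con replicates 2, 3 and 4, MPTP-SU replicate 3, MPTP-SU+S replicate 1 and MPTP-SU+T replicates 2 and 3. They included the 3 libraries highest in Tmem254 and none of its 9 lowest.

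Vamp7 was less like the other 5. Its r over 40 libraries was 0.340 with Tmem254, 0.370 with Duxbl1, 0.185 with Nmb, 0.0828 with Wdr73 and -0.0279 with Plac9, and 0.337 to 0.470 with the 5 genes without midbrain MPTP-Veh replicate 4. In the 20 spinal cord libraries r was 0.443 with Tmem254, 0.448 with Duxbl1, 0.524 with Wdr73, 0.528 with Nmb and 0.535 with Plac9, where the 5 had 0.683 to 0.935 among themselves. Of the 7 cord libraries highest in Vamp7, 6 were among the 7 highest for Plac9, 5 for Tmem254, Nmb and Wdr73 and 4 for Duxbl1, and 7 of the 9 lowest in Tmem254 were among the 9 lowest in Vamp7. The genes most like Vamp7 were Gemin4 (0.791), Cip2a (0.770), Slc29a3 (0.765), 0610030E20Rik (0.759) and Trim13 (0.751). Without that library they were Acot6 (0.675), Gemin4 (0.664), Fgf7, Pak2 and Ugt8a, so that the list of Vamp7 rested largely on 1 library. The genes most like Plac9 changed in part too, with Itgb4 (0.753) and Pea15a (0.732) giving way to LOC115490200 (0.734) and Duxbl1 (0.683). For Duxbl1, Nmb and Wdr73, the first 3 places over 40 libraries were taken by other members, Tmem254 among them each time.

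**Figure D4:**
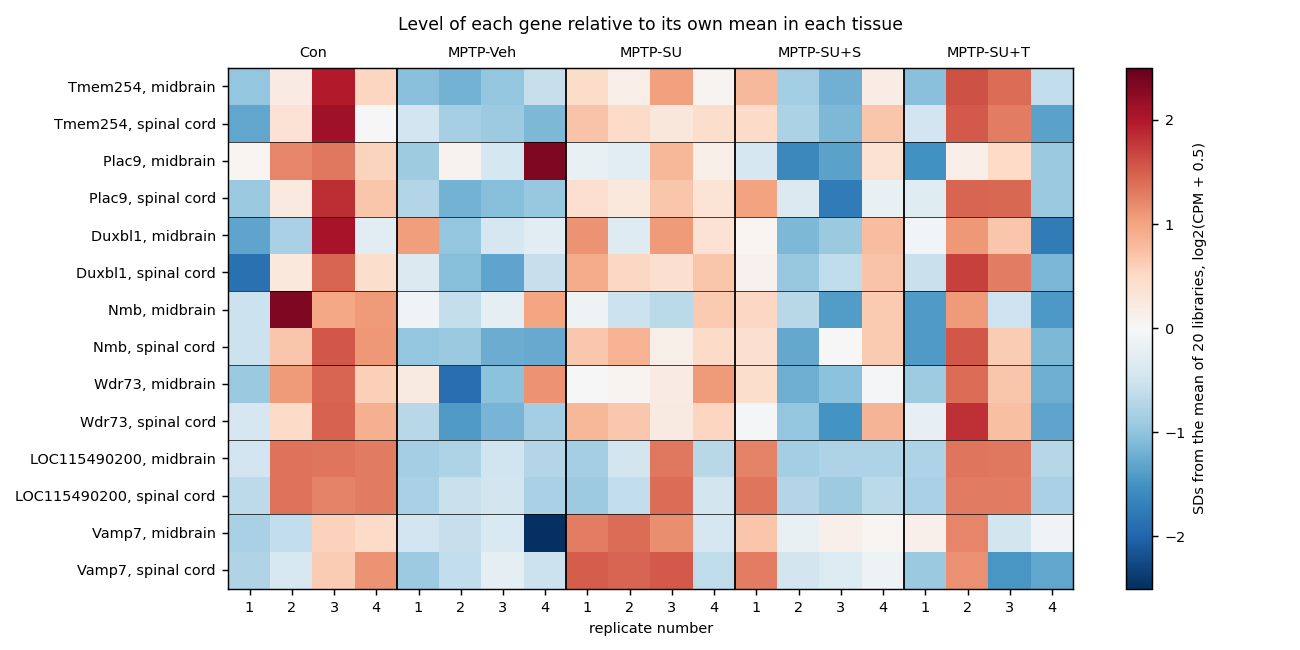
Level of the 6 genes and of LOC115490200 in each library, by tissue (rows) and by group and replicate number (columns), as SDs from the mean of the 20 libraries of a tissue on log2(CPM + 0.5). Con replicate 3 and MPTP-SU+T replicates 2 and 3 are red, and MPTP-SU+T replicate 4 and Con replicate 1 blue, in nearly all chromosome 14 and 7 rows, whereas Vamp7 is red in all of MPTP-SU replicates 1, 2 and 3.

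Measured neighbours were compared with the members in the same way. Of 10 genes listed around the chromosome 14 members, 4 were measured in both tissues, and their r with Tmem254 was 0.411 for Zcchc24, 0.0262 for Anxa11, -0.144 for Ppif and -0.284 for Gm34223. Over the 20 cord libraries it was 0.608 for Zcchc24, which shared 7 of the 9 lowest libraries of Tmem254, -0.362 for Anxa11, -0.449 for Ppif and -0.501 for Gm34223, where Plac9 had 0.896 and Duxbl1 0.935. Among cord libraries, the highest was 3.05 times the lowest for Tmem254, 8.24 times for Plac9 and 3.83 times for Duxbl1, but 1.12 to 1.58 times for Ppif, Zcchc24 and Anxa11. Gm34223, a long non-coding RNA on the other side, had a ratio of 3.10. Cphx1, the homeobox gene between Tmem254 and Duxbl1, reached only 0.730 CPM in the cord and could not be judged at this depth. Of 11 genes listed around the chromosome 7 members, 6 were measured, with r with Wdr73 from -0.321 (Iqgap1) to 0.535 (Zscan2) over 40 libraries and from -0.274 (Gm32178) to 0.488 (Crtc3) in the cord, where Nmb had 0.812. Sec11a, the nearest measured gene beyond Nmb and one that overlaps the Nmb start window on the same strand, had r of 0.204. Ratios in the cord were 9.38 for Nmb and 2.49 for Wdr73, and 1.25 to 1.99 for the 6 neighbours.

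Next to Vamp7 on the X scaffold, 2 of 4 listed genes were measured. Tmlhe, which encodes the first enzyme of carnitine synthesis, had r of 0.737 with Vamp7 over 40 libraries and 0.692 over the 20 of the cord. Spry3, a member of the Sprouty family, had r of 0.589 and 0.0888. Midbrain MPTP-Veh replicate 4 was the lowest midbrain library for Vamp7 (7.62 CPM), Tmlhe (2.45 CPM) and Spry3 (1.6 CPM). Its part in the values over 40 libraries was not tested. In the cord, the highest library was 3.18 times the lowest for Vamp7, 2.03 times for Tmlhe and 1.92 times for Spry3.

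**Figure D5:**
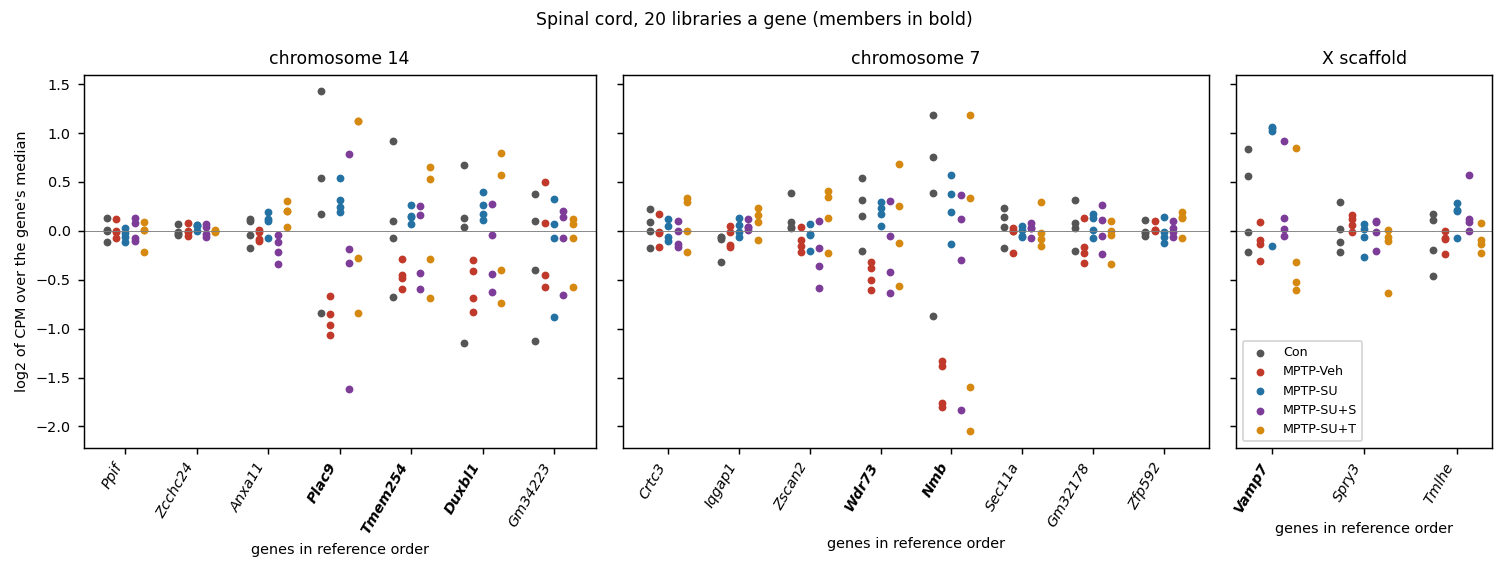
Log2 of CPM over the gene's median in the 20 spinal cord libraries, coloured by group, for the members (bold) and their measured neighbours in reference order; the horizontal axis is order, not distance. Ppif, Zcchc24 and Anxa11 have highest-to-lowest ratios of 1.12 to 1.58, the 6 chromosome 7 neighbours 1.25 to 1.99, Spry3 1.92 and Tmlhe 2.03. The members have 2.49 to 9.38, and the neighbour Gm34223, at 3.10, lies within that range. The largest ratios, of Nmb and Plac9, rest on lowest counts of 7 and 18.

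To ask whether MPTP or SUEHP changed these genes, each comparison was fitted with edgeR's quasi-likelihood test across all genes of a tissue, and a gene was called at a Benjamini-Hochberg adjusted p below 0.05 and a fold change above 1.5. In the midbrain, MPTP-SU had 1 member called against MPTP-Veh, where 13.5% of all 16629 genes tested were called. That member was Vamp7, at 104 ± 41.8 CPM (SD, n = 4) against 32.6 ± 16.7 CPM, a difference of 1.67 on the log2 scale (SE 0.46, adjusted p = 0.0234 by edgeR). MPTP-SU replicates 1, 2 and 3 lay above all MPTP-Veh libraries and replicate 4, at 42.3 CPM, did not. The call was lost in a fit of the 8 libraries alone (log2 fold change 1.66, adjusted p = 0.223) and without MPTP-SU replicate 1, 2 or 3 (1.53 to 1.62, adjusted p = 0.0522 to 0.0678), and kept without MPTP-Veh replicate 4 (1.35, adjusted p = 0.0277). Of all genes, 0% were called in the 8 libraries alone and 3.40% without MPTP-Veh replicate 4. Because the genes were chosen in part for agreement between tissues, this midbrain comparison is not independent of the spinal cord one. Tmem254 was the member whose groups did not overlap, where 21.9% of all genes had no overlap, at 19.5 ± 2.43 CPM in MPTP-SU against 13.2 ± 0.979 CPM in MPTP-Veh (log2 difference 0.56, SE 0.25, adjusted p = 0.107 by edgeR). Plac9 and Nmb, with log2 fold changes of -0.46 and -0.15, came to 0.52 and 0.14 without MPTP-Veh replicate 4.

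For MPTP-Veh against Con in midbrain libraries, 0 members were called by edgeR or by DESeq2, where edgeR called 0.018% of all genes and DESeq2 2.60%, and 1 member, Tmem254, had an unadjusted p below 0.05, as 23.7% of all genes did. That gene changed by -0.62 in log2 (SE 0.25, adjusted p = 0.163 by edgeR), and those of the members ranged from -0.81 (Nmb) to -0.12 (Duxbl1). Without MPTP-Veh replicate 4, Plac9 moved from -0.13 to -1.11 (adjusted p = 0.354 by edgeR) and Nmb to -1.10 (adjusted p = 0.412). The groups of 0 members were without overlap, where 12.4% of genes had none. Con was the more spread group for Tmem254, at 20.3 ± 7.04 CPM (SD, n = 4).

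The cord comparison of MPTP-Veh with Con uses the same 4 MPTP-Veh libraries as the comparison with MPTP-SU that entered the choice of the genes, so a low MPTP-Veh mean was favoured by that choice and the p-values here are not independent of it. All 6 members had lower means in MPTP-Veh than in Con, but 0 were called by edgeR or DESeq2, with 0% of all 16682 genes called by edgeR and 0.00599% by DESeq2. An unadjusted p below 0.05 was found for 4 members, and for 2137 genes (12.8%). Nmb had 0.703 ± 0.119 CPM in MPTP-Veh against 3.01 ± 1.49 CPM in Con (SD, n = 4), a log2 difference of -2.10 (SE 0.54, adjusted p = 0.19 by edgeR). Plac9 had a log2 difference of -1.43 (SE 0.45, adjusted p = 0.24 by edgeR), Wdr73 one of -0.67 (SE 0.20, adjusted p = 0.226) and Tmem254 one of -0.64 (SE 0.27, adjusted p = 0.32). Without the filter on low counts Nmb passed (log2 fold change -2.09, adjusted p = 0.0216 by edgeR), where 0.066% of genes did, as it did without Con replicate 2 (-2.14, adjusted p = 0.0404), where 0.344% did. Nmb and Wdr73 were the 2 members whose groups did not overlap, where 4.73% of genes had none. For the other 4, Con replicate 1 lay within or below the MPTP-Veh range.

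The cord comparison of MPTP-SU with MPTP-Veh entered the choice of the genes, and its values are a description. All 6 means were higher in MPTP-SU, by 1.82 for Nmb (SE 0.55), 1.20 for Plac9 (0.46), 0.93 for Vamp7 (0.29), 0.78 for Duxbl1 (0.31), 0.63 for Wdr73 (0.20) and 0.61 for Tmem254 (0.27) on the log2 scale. Groups did not overlap for the 5 members other than Vamp7, where 3.27% of all genes had no overlap, and 0 members were called by edgeR or DESeq2, which each called 0 genes (0%). At an unadjusted p below 0.05 edgeR had 636 genes. In the 8 libraries alone the count was 4 members and 5 genes in all (0.0313%). Picking the genes in part from this comparison favoured that count, so it is no evidence about them. Markers of dorsal root ganglia and roots summed to 874, 749, 475 and 497 CPM in MPTP-Veh and 1040, 1170, 1280 and 659 CPM in MPTP-SU, and their part in the difference was not tested.

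Addition of either inhibitor was not followed by a called change of a member. In the 3 midbrain comparisons among the 3 SUEHP groups, log2 fold changes ranged from -0.74 to 0.31 (adjusted p = 1.0 for every member by edgeR), and edgeR called 0 genes in each (0%), with 0 members at an unadjusted p below 0.05. Over all genes, 0.782 to 1.7% had an unadjusted p below 0.05 in these 3 comparisons by edgeR. DESeq2 called no more than 1 gene and 0 members in each of them. Spinal cord values ran from -0.84 to 0.63, with 0 members called where 0% of genes were called for MPTP-SU+S against MPTP-SU, 0.024% for MPTP-SU+T against MPTP-SU and 0.12% for MPTP-SU+T against MPTP-SU+S, and 0 members called by DESeq2. The lowest was Vamp7 in MPTP-SU+T against MPTP-SU, at 39.9 ± 21.9 CPM against 71.7 ± 23.5 CPM (log2 difference -0.84, SE 0.29, adjusted p = 0.259 by edgeR). It was the 1 member with an unadjusted p below 0.05 in these comparisons, and 12.1% of all genes had one in that comparison. The MPTP-SU cord libraries, with levels above MPTP-Veh, had entered the choice of the genes. A fall from MPTP-SU in the cord was favoured by that choice, and these p-values are not independent of it. Tmem254 had 30.7 ± 12.8 CPM with T0070907 and 30.8 ± 1.72 CPM in MPTP-SU, so that the means were alike and the spread was not.

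Differences of a comparison between tissues were tested as interactions in 1 fit of all 40 libraries. For MPTP-Veh against Con, 0 members were called where edgeR called 2.45% of genes, and for the 3 inhibitor comparisons 0 members where it called 0% in each. Over these 4 comparisons the differences ranged from -1.26 to 0.62 on the log2 scale (adjusted p = 0.266 to 1.0 by edgeR), with 0 members at an unadjusted p below 0.05. Over all genes, 27.7% had such a p in the interaction of MPTP-Veh against Con, and 1.98 to 2.46% in those of the inhibitor comparisons. Interactions with MPTP-Veh or MPTP-SU reuse cord libraries that entered the choice of the genes, so their p-values are not independent of it. For MPTP-SU against MPTP-Veh, where 12.1% of genes were called, the spinal cord minus midbrain difference was 1.96 for Nmb (SE 0.81) and 1.63 for Plac9 (SE 0.77), given as a description. DESeq2 was not run on interactions.

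The level in the spinal cord against the midbrain had no part in the choice of the genes. Of the 6 members, 2 were called, both higher in the spinal cord, where 22.0% of all 17426 genes tested were called. Duxbl1 had 4.51 ± 1.65 CPM in the cord (SD, n = 20) and 1.83 ± 0.641 CPM in the midbrain, a log2 difference of 1.27 (SE 0.16, adjusted p = 1.42e-08 by edgeR). Tmem254 had 27.7 ± 9.46 CPM and 17.8 ± 5.25 CPM, a log2 difference of 0.63 (SE 0.13, adjusted p = 5.01e-05). Tmem254 was higher in the cord in 20 of 20 same-numbered pairs, and Duxbl1 likewise in 20 of 20. Plac9 had a log2 difference of 0.57 (SE 0.24, adjusted p = 0.037 by edgeR), under the fold threshold, and passed it without midbrain MPTP-Veh replicate 4 (0.76, adjusted p = 0.00198). Nmb had one of 0.40 (SE 0.25, adjusted p = 0.154), Wdr73 one of -0.27 (SE 0.12, adjusted p = 0.05) and Vamp7 one of -0.32 (SE 0.18, adjusted p = 0.119). The genes of the duplicated segment thus had higher mean levels in the spinal cord, as did Nmb, whereas Wdr73 and Vamp7 had higher mean levels in the midbrain.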

How the data were processed

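Midbrain and spinal cord RNA was selected for poly(A), made into CORALL V2 libraries and sequenced as paired ends on a NovaSeq instrument. Per the study's methods and the submitters' processing notes, the authors used fastp for trimming, STAR for alignment and Salmon for quantification. GRCm39 and GATK are also named in those notes. Tool versions, and whether molecular identifiers were used, are not given in the sources used here. The values deposited by the authors are estimated counts per gene symbol, whole numbers that were not normalized. 

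Counts were analysed with edgeR 4.0.16 in R 4.3.3. filterByExpr kept 16629 of 40213 symbols in the midbrain, 16682 in the spinal cord and 17426 in the fit of both tissues. With TMM normalization, the quasi-likelihood model of a tissue took its 20 libraries with group as the sole term, and tissue differences and interactions came from 1 model of all 40. Genes with a Benjamini-Hochberg adjusted p below 0.05 and a fold above 1.5 were called. CPM use TMM library sizes. Correlations and step measures used log2 CPM with a prior count of 2. Poisson intervals are at 95% and cover counting error only, as the libraries' totals limit the precision of genes with few counts. The fit was tested on simulated data with 200 genes changed.

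The 6 genes and all lists were chosen with earlier results of these data known. Besides the 6, genes were named if they were a RefSeq neighbour of a member or among the 5 genes most correlated with one. So were the 20 with the closest same-number agreement past the weakest member. A list of genes known for copy-number or substrain differences among laboratory mice was also used. Some that this rule names are left out of the text. Alternatives were no filter, library size alone, DESeq2 1.42.0, RLE size factors, the 8 libraries of a comparison alone, a prior count of 0.5, a replicate block and each library left out. Correlations without midbrain MPTP-Veh replicate 4 and the sizes of the ranges were added after the data had been seen. Gene positions and start sequences are from RefSeq on GRCm38.p6, and no coordinates of the authors' build were used.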

Additional observations from a re-analysis of the deposited data

Results flagged for a closer look

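In 60 sets of 4 libraries (6 genes, 2 tissues and 5 groups), 5 had 1 library far from the other 3, with a gap to the nearest of them over the whole range above Dixon's 95% critical value for 4 values. Chance gives about 1 in 20 for genes not chosen by their values. The 6 genes were chosen in part for levels in separated ranges, which favours such sets, so their number is no evidence about the genes. Sets of the same library or of same-numbered libraries are not independent. For Plac9, midbrain MPTP-Veh replicate 4 had 9.13 CPM where the other 3 had 1.24 to 2.42 CPM (gap over range 0.851). For Vamp7, the same library had 7.62 CPM where the others had 38.6 to 43.3 CPM (0.869). It is the library with 1.74% of mitochondrially encoded counts, and the part of this in both values was not tested.

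The other 3 were spinal cord values of Vamp7. MPTP-SU replicate 4 had 36.4 CPM where the other 3 had 81.9 to 84.2 CPM (0.952). MPTP-SU+S replicate 1 had 76.6 CPM against 38.9 to 44.4 CPM (0.854), and MPTP-SU+T replicate 2 had 72.5 CPM against 26.5 to 32.4 CPM (0.871). In the midbrain the libraries of these 3 groups and numbers stood on the same side of the other 3, at 42.3, 85.5 and 120 CPM.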

How the results depend on the processing

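Of 888 log2 fold changes under an alternative, 832 were scored as unchanged, 4 lost a call, 4 gained one and 48 turned direction. Those that turned were in 18 comparisons of a member whose log2 size was at most 0.46 and of which 0 had a call. Unchanged meant the same direction and side of the threshold, except for MPTP-SU against MPTP-Veh in the spinal cord. There it meant a shift of less than the SE, so the 4 members called in the 8 libraries alone are among the 832. The call of Vamp7 in the midbrain (MPTP-SU against MPTP-Veh), and with it the count of 1 member, came to 0 in the 8 libraries alone (1.66, adjusted p = 0.223) and ran from 0 to 1 over left-out libraries (log2 1.35 to 1.93, adjusted p = 0.0187 to 0.0678). For MPTP-Veh against Con in the spinal cord, the count of 0 became 1, Nmb, without the filter (-2.09, adjusted p = 0.0216) and ran from 0 to 1 over left-out libraries (-2.37 to -1.79). In the spinal cord comparison that entered the choice of the genes, the count of 0 became 4 in the 8 libraries alone, where 5 genes (0.0313%) passed in all. That choice favoured this count, which is therefore no evidence about the genes. Members above the median gene in variance between midbrain groups numbered 2, not 1, with library size alone and without MPTP-Veh replicate 4. Genes below 10 counts a library, as Nmb in several, are limited by depth.

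Direction turned over left-out libraries, on the log2 scale, in these midbrain comparisons. For MPTP-Veh against Con, Plac9 ran from -1.11 to 0.15 and Duxbl1 from -0.36 to 0.36. For MPTP-SU against MPTP-Veh, Plac9 ran from -0.74 to 0.52 and Nmb from -0.41 to 0.14. Nmb ran from -0.23 to 0.28 for MPTP-SU+S against MPTP-SU. For MPTP-SU+T against MPTP-SU, Tmem254 ran from -0.15 to 0.18, Nmb from -0.84 to 0.075 and Wdr73 from -0.32 to 0.076, with Wdr73 at 0.017 by library size alone. For MPTP-SU+T against MPTP-SU+S, Plac9 ran from -0.042 to 0.82, Duxbl1 from -0.0062 to 0.41, Nmb from -0.87 to 0.048 and Vamp7 from -0.30 to 0.30. In the spinal cord, for MPTP-SU+T against MPTP-SU, Plac9 ran from -0.074 to 0.47, Duxbl1 from -0.31 to 0.18, Nmb from -0.95 to 0.096, Wdr73 from -0.29 to 0.13 and Tmem254 from -0.21 to 0.20. Tmem254, at 0.0033, was -0.0066 with DESeq2, -0.00038 with RLE size factors and -0.0015 in the 8 libraries alone. Nmb ran from -0.48 to 0.57 for MPTP-SU+T against MPTP-SU+S. The cause was not tested in any of these.

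With a replicate block, Plac9 passed the threshold between tissues (0.61, adjusted p = 0.00328), so that 3 members did in place of 2, and Tmem254 turned to -0.031 in MPTP-SU+T against MPTP-SU in the spinal cord; the block changed no other call. Over all genes, same-numbered libraries of different groups correlated with a median of 0.0189 in the midbrain (-0.193 to 0.477) and 0.00321 in the spinal cord (-0.236 to 0.283). Same-numbered libraries of the tissues had a median of 0.0705 (-0.264 to 0.374), over 0.1 in 9 of 20 pairs. Of the midbrain libraries, 11 of 20 were closest to their own number among the 4 of their group, more than random matching would give. These values do not show whether a number is 1 animal, and the labels do not say. The main fits therefore did not treat the numbers as pairs, and their tests between tissues take no account of any such pairing.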

Other observations

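Some genes moved against the 5 members of chromosomes 14 and 7. They were picked with their values in view, as those with the lowest mean r with the 5. Over 40 libraries, r with Tmem254 was -0.794 for Pisd-ps3, -0.779 for Tmem181b-ps, -0.739 for Gm39017 of chromosome 7 and -0.705 for Gm33862 of chromosome 11. Pisd-ps3, a transcribed pseudogene without a placed chromosome, ranged from 71.3 to 318 CPM in the midbrain and from 57.7 to 223 CPM in the spinal cord. Its same-number ratio of 0.227 was the third lowest of all genes.

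The genes with the closest agreement between same-numbered libraries were headed by LOC115490200 (ratio 0.155). LOC108168645, a long non-coding RNA of the Y chromosome, followed at 0.197 and ranged from 0.253 to 13.4 CPM in the midbrain, with all 7 of its highest libraries shared between tissues. Its r with Tmem254 was -0.423. Gm33272, of the Y chromosome too, had a ratio of 0.234, and Gm43305 of chromosome 14 one of 0.281, with 2.87 to 30.2 CPM in the midbrain and 3.76 to 35.4 CPM in the cord. Erdr1x_1, from a gene of the pseudoautosomal region, ranged from 4.65 to 235 CPM and from 3.64 to 147 CPM (ratio 0.302). In all, 2410 genes (16.6%) were at or beyond the weakest member in both the step and the agreement, so the pair of criteria alone did not set the 6 members apart.

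Of 14 genes listed as known for copy-number or substrain differences among laboratory mice, 10 were measured in both tissues. The weakest step of a member was passed by 4 (Fgfbp3, Entpd4, Loxl2 and Wdfy1), and 2 of these, Fgfbp3 (ratio 0.810) and Wdfy1 (0.708), also agreed between tissues at least as closely as the weakest member. Nnt, which is truncated in the C57BL/6J substrain, had 15.7 to 42.8 CPM in the midbrain and 23.5 to 37.3 CPM in the cord.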
